A study of Mus musculus with 5 samples.

Results

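The genes described here are 48 mouse genes of the cell division cycle, listed by symbol and sorted by the phase in which their products act. There are 18 genes of DNA replication and entry into S phase, 24 of mitosis, 2 D-type cyclins and 4 inhibitors of cyclin-dependent kinases. Of these, 46 were among the 10664 genes of the authors' deposited table, found by matching Ensembl identifiers to symbols. Cdc6, which loads the replicative helicase onto origins, and Cdkn2a, which encodes a kinase inhibitor and a separate protein that stabilises p53, were not analysed here.

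The data are RNA-seq libraries of sorted mouse keratinocytes taken 5 days after skin wounding, in 2 samples of genotype K14Cre-ER; Nrf2 flox/flox (called cKO) and 3 samples of littermates of genotype K14Cre-ER; Nrf2 +/+ (called WT). All animals therefore carry a hormone-inducible Cre recombinase under the keratin 14 promoter, which is active in basal keratinocytes, and the groups differ in whether the gene of the transcription factor Nrf2 can be deleted by it. Cells were taken from a ring of skin around the wound, depleted of lineage-positive and dead cells, and sorted as lineage-negative and positive for CD49f, an integrin of basal keratinocytes that endothelial cells carry as well. How Cre was induced, the sex of the animals and whether samples were pooled are not given in the sources used here. The series asks which genes Nrf2 regulates in keratinocytes during repair.

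Dividing cells pass from G1, where D-type cyclins and their kinases release E2F transcription factors from the retinoblastoma family, into S phase, where E2F targets copy the genome. Genes of mitosis are switched on later, by complexes of B-MYB and FOXM1 with the MuvB core. In healing skin, keratinocytes behind the wound edge divide while those at the tip of the migrating sheet largely do not, so the sum of these transcripts in a sorted sample reflects how many cells are cycling as well as how much each makes.

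Every value below comes from 1 comparison that the authors made, listing per gene the log2 fold change, the mean level (as log2 CPM, where CPM scales each library to the same total), the p-value and its adjusted form, the false discovery rate (FDR). The title of the deposited workbook speaks of filtered TPM (a measure corrected for gene length) and of a pseudocount, so the levels headed as CPM may have been made from TPM, and fold changes of low genes may be understated. Levels are printed here as CPM, after the header. No value per sample was analysed here, so no spread between samples can be shown. The fold changes are given as log2 of cKO over WT, so that negative values are lower in cKO. Where a level in each genotype is printed, it was derived from the deposited mean level and fold change on the assumption that both genotypes weigh alike in that mean. With 3 WT and 2 cKO samples, a mean over samples would not weigh them alike, so these levels are approximate. A gene is called where the FDR is under 0.05.

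Promoters are shown first because many mitosis genes, and many replication genes, share short sequences that the choice of genes did not use. The stretches below run from 150 bases before to 20 bases after the RefSeq gene start (build GRCm38.p6), 5′ to 3′ on the strand of the gene. Capitals mark matches, on either strand, to CCAAT (the box bound by NF-Y), to TTTGAA (the cell cycle genes homology region, CHR, a docking site of MuvB complexes) or to 1 of 3 forms of the E2F site, TTTGGCGC or TTTCCCGC or GGCGGGAA. They show the called gene Birc5, the mitotic genes Ccnb2 and Hmmr with large negative values, Mki67 with a value near 0, and the replication genes Rrm2 and Mcm5 with the lowest values of their class.
Birc5 (chr11:117849087-117849256, plus strand): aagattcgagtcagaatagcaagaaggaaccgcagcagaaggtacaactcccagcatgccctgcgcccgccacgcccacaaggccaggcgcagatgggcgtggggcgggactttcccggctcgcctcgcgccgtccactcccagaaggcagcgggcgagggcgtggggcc
Ccnb2 (chr9:70421535-70421704, minus strand): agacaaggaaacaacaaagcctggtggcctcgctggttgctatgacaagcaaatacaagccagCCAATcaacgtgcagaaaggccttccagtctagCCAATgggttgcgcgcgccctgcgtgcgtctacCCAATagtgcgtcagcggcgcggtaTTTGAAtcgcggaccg
Hmmr (chr11:40733418-40733587, minus strand): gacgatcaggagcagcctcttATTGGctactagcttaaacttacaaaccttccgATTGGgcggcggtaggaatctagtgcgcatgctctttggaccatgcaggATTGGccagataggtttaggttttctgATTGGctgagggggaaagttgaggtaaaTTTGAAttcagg
Mki67 (chr7:135716360-135716529, minus strand): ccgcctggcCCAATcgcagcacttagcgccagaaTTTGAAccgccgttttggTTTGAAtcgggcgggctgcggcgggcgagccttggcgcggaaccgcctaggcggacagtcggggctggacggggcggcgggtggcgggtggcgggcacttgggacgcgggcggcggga
Rrm2 (chr12:24708104-24708273, plus strand): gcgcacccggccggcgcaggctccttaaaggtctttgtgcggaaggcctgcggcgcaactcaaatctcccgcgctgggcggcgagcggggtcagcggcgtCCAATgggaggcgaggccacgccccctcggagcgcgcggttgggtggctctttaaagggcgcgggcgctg
Mcm5 (chr8:75109359-75109528, plus strand): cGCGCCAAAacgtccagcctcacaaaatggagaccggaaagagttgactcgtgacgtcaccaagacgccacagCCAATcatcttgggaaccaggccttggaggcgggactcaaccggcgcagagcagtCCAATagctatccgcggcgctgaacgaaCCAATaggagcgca

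In the Ccnb2 stretch a CHR match began at base 5 after the start, behind CCAAT matches at -87, -54 and -21. Hmmr had a CHR match at base 9, behind reversed CCAAT matches at -129, -96, -47 and -20. Mki67 had CHR matches further upstream, at -116 and -98. Mcm5 had an E2F match at -149 and no CHR match. Birc5 had no match to any of these letters, which says only that they are not in this window.

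Promoter windows of 300 bases were at hand for 36 of the 46 members. A CHR match together with a CCAAT match was found for 13 of 19 mitosis genes (68.4%), for 1 of 14 replication genes (7.14%) and for 6.02% of 8329 genes of the table with a window. An E2F match was found for 7 of 14 replication genes (50.0%), 0 of 19 mitosis genes and 7.26% of the genes of the table. Over all 27025 genes with a window, the shares were 7.97% for CHR with CCAAT and 3.69% for any E2F form. These letters are a description of sequence, and fold changes by match are given without a test. Among replication and mitosis genes, the 14 with a CHR match had a median of -0.53 and the 19 without had -0.51. The 7 genes with an E2F match had a median of -0.66 and the 26 without had -0.47.

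Replication and mitosis genes lay mostly below 0 in cKO, by small amounts, and 1 of them was called. Of 41 such members 37 had lower and 4 higher values, with a median of -0.51, which is 70.0% of the WT level. Among all genes, 49.7% had lower values and the median was 0.00. Of the 3 inhibitors, 2 had values above 0, and their median of 0.75 was the value of Cdkn1b. The most abundant of them, Cdkn1a, had -0.06, and the 2 D-type cyclins lay near 0. The 1 called gene of all 46 members was Birc5, a share of 2.17% beside 2.61% of all genes in the authors' deposited table (2.15% called lower and 0.459% called higher), so the share of calls was near the background. At an unadjusted p under 0.05 there were 5 members, 10.9% of them, all lower in cKO, beside 8.36% of all genes (5.89% lower and 2.48% higher). No difference between classes could be tested, since there are no values per sample.

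**Figure D1:**
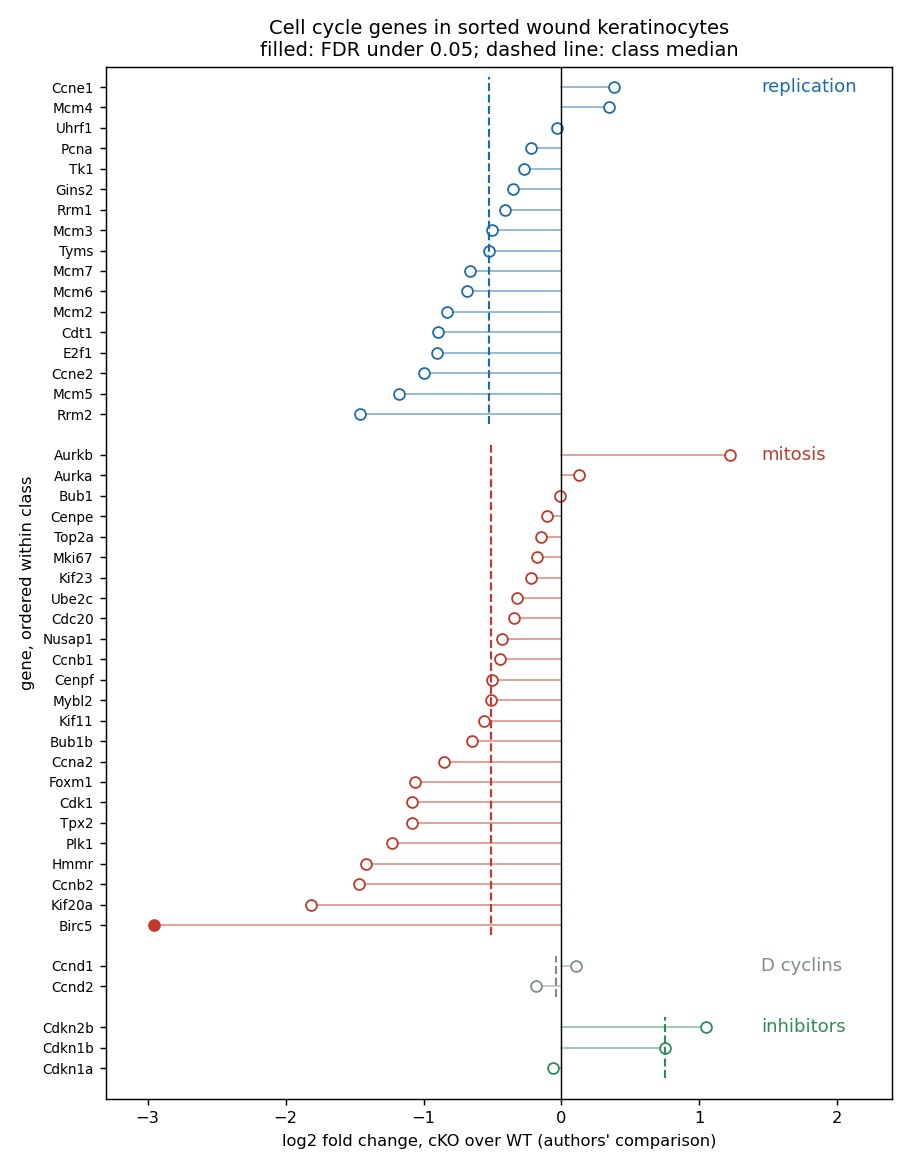
Log2 fold change (cKO over WT, horizontal axis) of each of the 46 members found in the authors' deposited table, ordered within replication, mitosis, D-type cyclin and inhibitor classes. Filled points have an FDR under 0.05, open points do not, and dashed lines are class medians: -0.53 for replication, -0.51 for mitosis, -0.04 for D-type cyclins and 0.75 for inhibitors. Birc5 is the 1 filled point.

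Birc5 encodes survivin, the subunit that brings the chromosomal passenger complex with Aurora B to centromeres and that also restrains cell death. The gene lies on chromosome 11, 117849251 to 117855743, plus strand (mm10, ENSMUSG00000017716), and its exons overlap no other annotated gene. Its level went from 11.3 CPM in WT to 1.46 CPM in cKO, derived from the authors' deposited table. Birc5 fell by 2.96 on the log2 scale with a standard error of 0.82 implied by its p-value (per the authors' deposited table, adjusted p = 0.0186). A lower value was held by 2.03% of all genes. Aurkb, the kinase of the same complex, stood at the opposite end of the mitosis class, with 1.22 (mean 2.74 CPM) (per the authors' deposited table, adjusted p = 0.889). Its levels were 1.64 CPM in WT and 3.83 CPM in cKO, derived from the same table. The other 2 subunits of the complex, Incenp and Cdca8, chosen after their values were seen, had -0.68 and -0.94 in the authors' deposited table, both uncalled. The 4 genes of this complex therefore had values from -2.96 to 1.22, and 1 of them passed the threshold.

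Cyclins that drive entry into mitosis, and their kinase, had negative values throughout. Ccnb2, a B-type cyclin, had -1.47, going from 15.3 to 5.51 CPM (per the authors' deposited table, adjusted p = 0.555). Cdk1, the kinase that B-type cyclins activate, had -1.08 (4.79 to 2.26 CPM), derived from the authors' deposited table. Ccna2, the cyclin of late S phase and G2, had -0.85, and Ccnb1, the main partner of Cdk1, had -0.45 in the authors' deposited table. The B-type cyclins, which act together on the same kinase, thus differed by about 1 unit in log2 fold change, and that difference had no test. Ccnb1 and Ccnb2 each have an annotated pseudogene, so their reads may be shared.

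Values of the mitotic kinases did not share a sign, and none of these genes was called. Plk1, which promotes entry into mitosis and centrosome maturation, had -1.23 at 4.12 CPM in the authors' deposited table. Aurka, which builds the spindle poles, had 0.13 at 1.99 CPM (per the authors' deposited table, adjusted p = 1.00). Tpx2, which activates Aurora A on microtubules, had -1.08 in the authors' deposited table. The checkpoint kinases Bub1 and Bub1b, which hold back anaphase until chromosomes are attached, had -0.01 and -0.65 in the authors' deposited table.

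Among motor proteins, Kif20a, a kinesin of the central spindle needed for cytokinesis, had the second lowest value of all members, -1.82, going from 7.23 to 2.06 CPM (per the authors' deposited table, adjusted p = 0.402). Its exons overlap those of Cdc23 on the other strand, and the sources used here do not say whether counting used strand. Kif23, a kinesin of the same central spindle, had -0.22 in the authors' deposited table. Kif11, which pushes spindle poles apart, had -0.56 and Cenpe, a kinesin of the kinetochore, had -0.10 in the authors' deposited table. All 4 kinesins had negative values and none was called.

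Hmmr, a spindle-associated hyaluronan receptor, had -1.41, going from 19.5 to 7.31 CPM (per the authors' deposited table, adjusted p = 0.597). Cenpf, a kinetochore protein, had -0.50 and Nusap1, which bundles spindle microtubules, had -0.43 in the authors' deposited table. The anaphase-promoting complex partners Cdc20 and Ube2c, its activator and its ubiquitin-conjugating enzyme, had similar values of -0.34 and -0.32 in the authors' deposited table. Foxm1, the forkhead factor of mitotic genes, had -1.06, and Mybl2, which encodes B-MYB, had -0.51 at 0.896 CPM in the authors' deposited table. Mki67, which encodes the Ki-67 antigen used to count cycling cells, had -0.17, at 132 CPM in WT and 117 CPM in cKO, derived from the authors' deposited table. Top2a, the topoisomerase that untangles sister chromatids, had -0.15, at 99.8 and 90.1 CPM, derived from the same table. The usual proliferation markers were thus among the members nearest to 0. Genes at the levels of Mki67 and Top2a had medians of 0.10 and 0.08, and 18.9% and 23.9% of them had lower values.

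Replication genes had values as low in the middle of the class as mitosis genes. Of 17 genes 15 had lower and 2 higher values, with a median of -0.53, beside -0.51 for mitosis, a difference of medians of -0.02. None of the 17 (0) had an FDR under 0.05 in the authors' deposited table, beside 1 of 24 mitosis genes and 2.61% of all genes. At an unadjusted p under 0.05 there was 1 replication gene, Rrm2 (5.88%), and 4 mitosis genes (16.7%), beside 8.36% of all genes. The difference between the classes in these counts was not tested. The mitosis class spread wider, with 8 of 24 genes below -1 against 2 of 17 replication genes, beside 10.9% of all genes. Levels differed as well, with a median of 7.79 CPM for mitosis, 11.9 CPM for replication and 22.7 CPM for all genes. Among genes of like level, the share lying below each of those 8 mitosis genes was 2.41% (Birc5) to 25.4% (Cdk1). The comparison of spread was not matched for level.

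The 6 subunits of the MCM ring, the helicase that opens DNA at replication forks, are needed in equal number, and 5 of them had lower values. Mcm5 had -1.18 at 3.11 CPM, Mcm2 had -0.83, Mcm6 -0.68, Mcm7 -0.66 and Mcm3 -0.51 in the authors' deposited table. Mcm4 had 0.34, going from 22.9 to 29.1 CPM, derived from the authors' deposited table. The exons of Mcm7 overlap Ap4m1, Cops6 and 2 microRNA genes, so its reads may be shared. Cdt1, which loads the ring with Cdc6, had -0.90, and Gins2, a subunit of the active helicase, had -0.35 in the authors' deposited table. Pcna, the clamp that holds polymerases on DNA, had -0.22 at 145 CPM in the authors' deposited table, and has annotated pseudogenes.

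Of the genes that supply deoxynucleotides, Rrm2, the small subunit of ribonucleotide reductase made in S phase, had the lowest value of the class. It had -1.46, going from 32.7 to 11.9 CPM (per the authors' deposited table, adjusted p = 0.503). Its partner Rrm1, the large subunit, had -0.41 in the authors' deposited table. Tyms, thymidylate synthase, had -0.53 and Tk1, thymidine kinase, -0.27 in the authors' deposited table. The 4 genes of this group were all below 0, and the inducible subunit was furthest from it.

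Cyclin E genes, which start S phase, pointed both ways. Ccne2 had -0.995, going from 15.1 to 7.59 CPM, and Ccne1 had 0.38, going from 1.44 to 1.87 CPM, derived from the authors' deposited table. E2f1, which turns on the replication genes, had -0.90 at 1.84 CPM in the authors' deposited table. Uhrf1, which keeps DNA methylation in step with replication, had -0.03 in the authors' deposited table. None of these 4 genes was called.

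D-type cyclins, which link growth signals to the cycle, had values near 0, with 0 of 2 called and 0 at an unadjusted p under 0.05. Ccnd1 had 0.11, at 23.4 CPM in WT and 25.3 CPM in cKO, derived from the authors' deposited table. Ccnd2 had -0.18, at 152 and 134 CPM, derived from the same table. Both overlap other annotated exons on the opposite strand.

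The kinase inhibitors had 0 of 3 genes called in the authors' deposited table, and 0 at an unadjusted p under 0.05. Cdkn2b, an inhibitor of CDK4 and CDK6 that is induced by TGF-beta, had 1.05, going from 9.43 to 19.5 CPM (per the authors' deposited table, adjusted p = 0.880). Cdkn1b, which holds back CDK2 in resting cells, had 0.75, going from 42.1 to 70.8 CPM (per the authors' deposited table, adjusted p = 1.00). Higher values than these were uncommon, since 95.5% of all genes lay below Cdkn2b and 91.4% below Cdkn1b. Cdkn1a, the inhibitor that p53 induces, had -0.06 at 2152 CPM in the authors' deposited table. With 3 genes the median of 0.75 rests on Cdkn1b.

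The comparison could call only large changes at the levels of these genes. Among genes within 0.5 log2 units of a member's level, the smallest called change was 2.20 to 3.45, with a median over the members of 2.36, computed from the authors' deposited table. Birc5, being called, was at or past that size by construction, because it counts among the genes at its own level. No other member reached it. The standard errors implied by the p-values were 0.55 to 2.97 over 43 members, with a median of 0.73. The highest was that of Mybl2, at 0.896 CPM, and the next was 0.94 for Cenpe. The value was not computed for Uhrf1, Bub1 and Cdkn1a, whose p-values were too high for the division, and it is imprecise for other high p-values. A change of the size of the class medians was thus not detectable for a single gene in this comparison, and its absence is not shown either.

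Fold changes also shifted with level in the table as a whole. Genes under 5 CPM had a median of -0.34, those from 5 to 20 CPM -0.14 and those at 20 CPM or more 0.08, with 60.4%, 57.4% and 42.0% of them below 0. Replication and mitosis members were below 0 in 7 of 10, 22 of 22 and 8 of 9 cases in these ranges, with medians of -0.98, -0.54 and -0.35. Set against genes of like level, the median over both classes was -0.47, close to that on the deposited scale. For mitosis genes it was -0.37 and for replication genes -0.47. The 3 mitosis genes at 20 CPM or more had a median of -0.17.

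**Figure D2:**
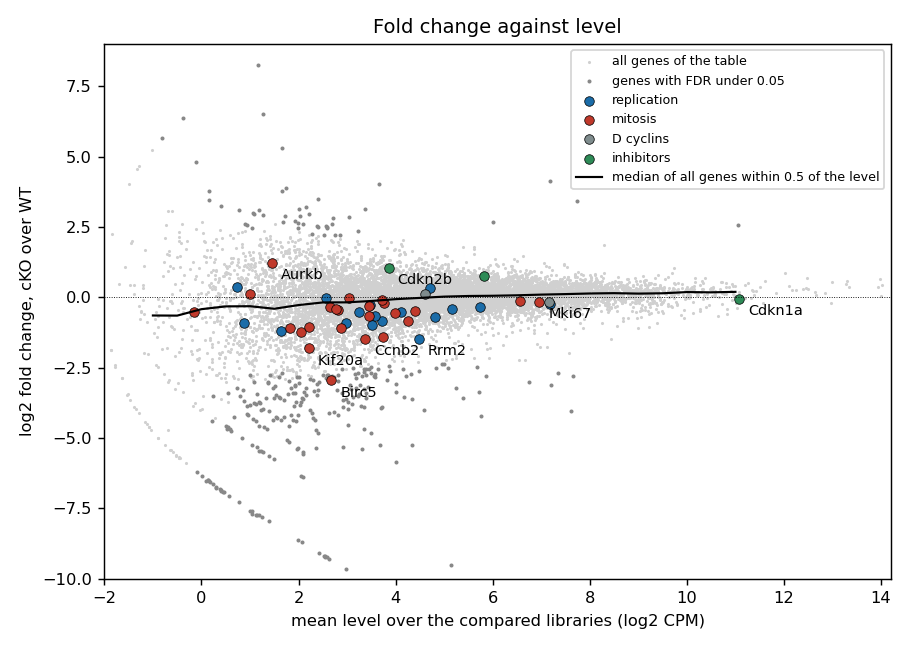
Log2 fold change (cKO over WT, vertical axis) against the mean level (log2 CPM, horizontal axis) for all 10664 genes (light grey), called genes (dark grey) and the 46 members in class colours. The black line is the median of all genes within 0.5 log2 units of level, which passes from below 0 at low levels to above 0 at high levels. Most replication and mitosis members lie under the line, and Birc5 is the 1 member among the called genes.

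Wider lists of cell cycle genes showed how far the pattern of the members extended. Of 54 other replication genes, 29 had lower and 25 higher values, with a median of -0.24, so their directions were nearly even. Pola2, the accessory subunit of the primase-bound polymerase, was the 1 called gene and fell by 2.83, going from 6.83 to 0.959 CPM (per the authors' deposited table, adjusted p = 0.0394). The 1 call is 1.85% of the list, beside 2.61% of all genes, and Pola2 had a mean level of 3.90 CPM, in the range under 5 CPM where 9.10% of genes were called. Clspn, an adaptor of the replication checkpoint, had -2.62 (per the authors' deposited table, adjusted p = 0.0724). Dbf4, which activates the origin-firing kinase, had -1.84 and Dtymk, thymidylate kinase, had -1.85 in the authors' deposited table.

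Of 71 other mitosis genes, 50 had lower and 21 higher values, with a median of -0.51, and 4 were called, all lower. That is 5.63% of the list, beside 2.61% of all genes. Cenpm, a centromere protein, fell by 4.74, going from 2.95 to 0.110 CPM (per the authors' deposited table, adjusted p = 0.0104). Gtse1, which acts on p53 and microtubules in G2, fell by 4.31, going from 3.96 to 0.199 CPM (per the authors' deposited table, adjusted p = 0.0151). Kif2c, a kinesin that takes microtubules apart at centromeres, fell by 3.45, and Depdc1a, a mitotic protein, fell by 2.86 (per the authors' deposited table, adjusted p = 0.0230 and 0.0216). Cenpm, Gtse1 and Kif2c had levels of 1.53, 2.08 and 2.20 CPM per the authors' deposited table, and of the 1681 genes under 5 CPM 9.10% were called. Trip13, which resets the spindle checkpoint, had -2.41 (per the authors' deposited table, adjusted p = 0.0691). At 20 CPM or more the 16 genes of this list had a median of 0.00, with 8 of them lower.

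**Figure D3:**
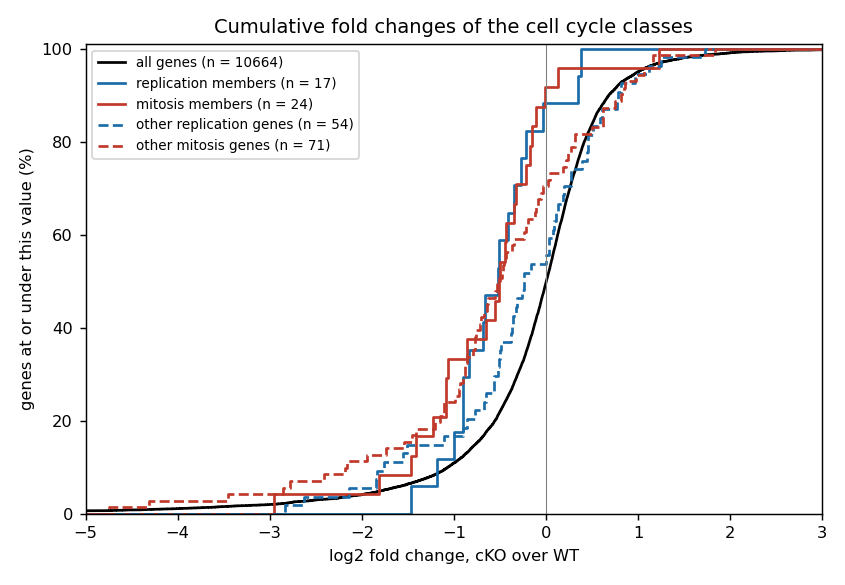
Share of genes (%, vertical axis) at or under each log2 fold change (cKO over WT, horizontal axis) for all 10664 genes, the 17 replication and 24 mitosis members (solid) and the 54 other replication and 71 other mitosis genes (dashed). The member curves lie to the left of all genes, with 88.2% of replication and 91.7% of mitosis members below 0, whereas 53.7% of the other replication genes and 70.4% of the other mitosis genes are below 0.

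Genes of G1 and the pocket proteins lay mostly above 0, with 16 of 21 higher and a median of 0.48. None was called in the authors' deposited table, and 0 had an unadjusted p under 0.05. The smallest p-values belonged to Lin37, a part of the MuvB core, with 0.83, and to Cdc25a, the phosphatase that frees CDK2, with 0.80, in the authors' deposited table. They were followed by E2f7, a repressing E2F factor, with -1.01, and Lin9, another part of the MuvB core, with 0.71, in the authors' deposited table. Tfdp1, the common partner of E2F factors, had -0.70 in the authors' deposited table. Of 26 other inhibitors and p53 targets 18 had higher values, with a median of 0.20, and 0 were called or had an unadjusted p under 0.05. Aen, a nuclease induced by p53, had 1.03 and Phlda3, a p53-induced inhibitor of AKT, had 0.74 in the authors' deposited table.

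Markers of other cells differed between the genotypes in the same comparison. The targeted gene Nfe2l2, which encodes Nrf2, had -1.99 and was not called (per the authors' deposited table, adjusted p = 0.126). All 9 analysed endothelial markers of 12 had lower values, 7 of them called, with a median of -3.64 and a summed level of 174 CPM in WT and 19.4 CPM in cKO, derived from the authors' deposited table. For fibroblasts, 5 of 6 analysed markers had lower values, 4 of them called (10 listed), with a median of -2.89 and a summed level going from 1045 to 123 CPM. Melanocyte markers had lower values in 4 of 4 cases (7 listed), 3 of them called, with a summed level going from 123 to 31.9 CPM. Basal keratinocyte markers had a median of -0.24 with 0 of 8 called, and their summed level was 5621 CPM in WT and 5492 CPM in cKO. Differentiated keratinocyte markers had a median of 0.21 with 0 of 8 called (9 listed), and their summed level was 30116 CPM in WT and 38946 CPM in cKO.

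Markers of blood cells were few in the table. Neutrophil markers had lower values in 3 of 3 cases (6 listed), 1 of them called, with a summed level going from 170 to 41.2 CPM. S100a8 and S100a9 (called) made up most of that sum, at 73.6 and 86.3 CPM in WT, derived from the authors' deposited table. Cxcr2 was uncalled, going from 10.2 to 4.97 CPM, derived from the same table. Whether neutrophils or the sorted keratinocytes were the source of S100a8 and S100a9 RNA was not tested. Of 8 macrophage and dendritic cell markers 3 were analysed, with a median of -0.41, 0 called and a summed level of 12.5 CPM in WT and 10.7 CPM in cKO. These markers pointed both ways, with -0.61 for Itgam, -0.41 for Cd74 and 1.46 for Cd68 (mean 1.87 CPM) in the authors' deposited table. Cd68 alone had an unadjusted p under 0.05. Of 5 erythroid markers 2 were analysed, with a median of 1.08 and 0 called. None of the 10 lymphocyte markers was analysed here. Endothelial cells, fibroblasts and leukocytes divide in wounds too, and the part of any of them in the cell cycle values was not tested. Lineage-positive cells, which include T cells, B cells, myeloid cells and red cells, had been depleted and were gated out in the sort. In bulk samples, fewer cycling cells and less of these RNAs per cell cannot be told apart.

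**Figure D4:**
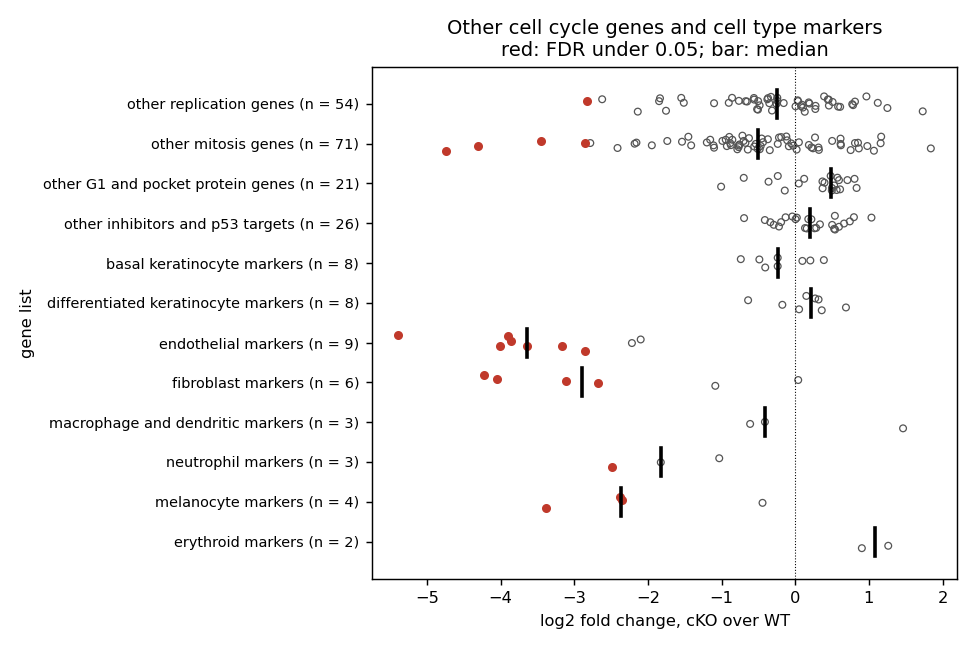
Log2 fold change (cKO over WT, horizontal axis) of each gene in the other cell cycle lists and the cell type marker lists, with red points for an FDR under 0.05 and a bar at the median. Medians are -3.64 for endothelial and -2.89 for fibroblast markers, -0.51 for other mitosis genes, -0.24 for other replication genes and 0.48 for G1 and pocket protein genes.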

How the data were processed

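Values came from the authors' comparison of WT with KO keratinocytes. The deposited log2 fold change, mean log2 level, p-value and FDR are named as such per the file headers. Per the submitters' processing notes, the reads were handled with Trimmomatic 0.35, STAR 2.6.0c and RSEM on mm10. The tool behind the comparison, the libraries that entered it and their depth are not given in the sources used here. The title of the deposited workbook speaks of filtered TPM and a pseudocount, so whether levels are corrected for gene length is not settled. Levels were used to find genes of like level and to filter, and were summed within marker lists to set the genotypes side by side. The base of the log2 level was taken as 2 because the deposited levels summed to 1.00436e+06 on the linear scale. The FDR was recomputed from the deposited p-values by the Benjamini-Hochberg method over all 10664 genes (largest difference 7.17e-15). Notes beside 2 negative entries of a second sheet of 278 genes, all of them genes with an FDR under 0.05, describe those entries as higher in KO, so signs were turned round to cKO over WT.

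Symbols and positions came from GENCODE vM21 (GRCm38, the same build as mm10) and matched 10655 genes. Promoter windows (250 bases before to 50 after the gene start) are from RefSeq, build GRCm38.p6. Exons of 15 of the 46 members overlap another gene. The implied standard error is the fold change divided by the normal quantile of its p-value, so it carries whatever spread the authors' model assumed. Labels do not say whether samples came from separate animals.

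Any member could be named. Of the other lists, called genes and up to 5 genes with the smallest p were named, and exceptions are stated. A gene that this rule takes is not reported here. Members, lists and tests were chosen with earlier results of these data known. Classes were described by counts and medians and not tested. Alternatives were other thresholds and adjustments, level filters, member subsets and centrings. Software was SciPy 1.17.1, NumPy 2.4.6, matplotlib 3.10.9 and pandas 2.3.3 under Python 3.11.15.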

Additional observations from a re-analysis of the deposited data

How the results depend on the processing

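All settings below start from the p-values of the authors' deposited table. Birc5 was called by the deposited FDR, at a threshold of 0.1, among genes at 5 CPM or more and under an empirical null (robust SD of z 0.821). Its adjusted p, from the model behind the authors' deposited table, was 0.0365 and 0.000697 under the latter settings. It was lost at a threshold of 0.01 and under the Benjamini-Yekutieli adjustment (0.184), which left 0 members called. Of all genes 3.53% were called at 0.1, 1.43% at 0.01, 1.16% at 5 CPM or more, 1.09% under Benjamini-Yekutieli and 5.22% under the empirical null. No other member was called under any of these settings. Calls among other replication genes went from 1 to 2 at 0.1, 3 under the empirical null and 0 under the remaining settings. Pola2, at 3.90 CPM, was left out by the filter at 5 CPM. Among other mitosis genes 4 calls became 6 at 0.1 and 9 under the empirical null. There was 1 (Depdc1a) at 5 CPM or more, and 0 at 0.01 and under Benjamini-Yekutieli. The 9 included Kif22, which was higher in cKO (1.84 in the authors' deposited table). Kif2c, Cenpm and Gtse1 lay under 5 CPM, so that filter left them out untested. Means in place of medians were -0.67 for mitosis, -0.62 for replication with mitosis and 0.58 for inhibitors. The following were chosen after seeing the data. At 20 CPM or more the medians were -0.38 (replication), -0.17 (mitosis), -0.35 (both) and 0.34 (inhibitors). Relative to genes of like level the mitosis median was -0.37. Without genes whose exons overlap another, the inhibitor median was 0.90, and no D-type cyclin was left. No class median changed sign under any setting, and the others moved by 0.1 or less. A window of 1 log2 unit gave 2.22 in place of 2.36 for the smallest called change. No paired analysis was possible because the comparison holds no value per sample, and for the same reason no replicate could be left out.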
